A study of Mus musculus with 106 samples.

Results

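Livers of DBA/2J mice on a chow diet were compared with livers of 8 other inbred mouse strains on the same diet. The DBA/2J libraries were chosen by the strain and diet in the sample labels and numbered 6 of the 106 libraries of the series, 3 from females and 3 from males. They were set against 47 chow libraries, from 3 females and 3 males of each other strain except 129S1/SvImJ, where 2 females were used. A/J, 129S1/SvImJ, C57BL/6J, NOD/ShiLtJ and NZO/HlLtJ are classical laboratory strains, and CAST/EiJ, PWK/PhJ and WSB/EiJ descend from wild-caught mice. The labels name no engineered allele and no agent in any group. All mice were 21 weeks old, and their livers were perfused and collected in the morning without the gallbladder. Of the energy in the chow, 6% came from fat, 20% from protein and 74% from carbohydrate. A SMARTER kit turned the RNA into mRNA-seq libraries, and the unit below, CPM, is a gene's read count relative to the library's gene-assigned reads, with that total adjusted by edgeR's TMM scaling factor.

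DBA/2J is an inbred strain that is widely used with C57BL/6J as a parent of recombinant inbred panels. It carries well-known variants, among them a frameshift in the complement gene Hc and a nonsense allele of Gpnmb. The liver makes most plasma proteins, oxidises and stores fuel, makes cholesterol and bile acids, and clears foreign compounds through cytochrome P450 and conjugating enzymes, and several of these genes differ between the sexes because of growth hormone pulses. Liver cells, including the resident macrophages called Kupffer cells, also carry the interferon system, in which interferons bind their receptors, activate transcription factors such as STAT2 and IRF9, and switch on antiviral genes such as the Oas, Ifit, Mx and Isg15 genes.

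The 6 DBA/2J libraries held 38773478 to 51883766 gene-assigned reads and the other chow libraries 42061153 to 63341708. Reads that mapped to more than 1 place and were not counted made up 18.7 to 26.5% of the total in DBA/2J and 13.4 to 24.8% in the others. The closest library by log2 CPM over all genes came from the same strain for 53 of 53 libraries, and Xist (328 to 382 CPM in DBA/2J females, 0.053 to 0.396 CPM in males) and the Y-linked genes matched the labelled sex of all 6 DBA/2J libraries. The left-out library labelled 129S1/SvImJ female had 0.923 CPM of Xist, within the male range of 0.0516 to 2.41 CPM. Summed hepatocyte markers (Alb, Apoa1, Ttr and 5 others) lay between 98100 and 129000 CPM in DBA/2J, inside the range of the other libraries. The mice came from staggered cohorts that the labels do not assign to libraries, so strain and cohort cannot be told apart. DBA/2J is also 1 strain, so the tests below measure the spread between mice and not between strains. With the strain as the unit, where 1 strain mean was set against 8, limma called 1 gene, the pseudogene Rpsa-ps10, and 163 genes had an unadjusted p under 0.05.

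DBA/2J differed from the mean of the other 8 strains, with each strain weighted equally and the sexes averaged, at 3982 of 14330 genes (27.8% of genes tested; edgeR's quasi-likelihood test, Benjamini-Hochberg adjusted p below 0.05). Of these, 2138 were higher in DBA/2J (14.9% of genes tested) and 1844 lower (12.9%). Their median absolute log2 difference was 0.553, and 978 differed by at least 2-fold, 617 higher and 361 lower. A gene can pass this test because another strain is extreme, so each gene was also tested against every other strain. At 125 genes (0.872% of genes tested) DBA/2J differed from each of the 8 strains in the same direction. These genes, called set apart here, comprised 70 higher (0.488%) and 55 lower ones (0.384%), and 106 of them code for proteins. The same count was 95 in 129S1/SvImJ, 145 in NOD/ShiLtJ and 1769 in CAST/EiJ, so DBA/2J had fewer genes of its own than 7 of the other 8 strains and more than 1. At 38 genes (0.265% of genes tested) all 6 DBA/2J libraries lay beyond all 47 others, and 37 of these were set apart, 17 higher and 20 lower.

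Among the genes set apart upwards, Adrb3 encodes the beta-3 adrenergic receptor, known from fat cells (chromosome 8, 27225776 to 27250616 in GRCm38). It stood at 22.4, 27.7 and 26.5 CPM in the DBA/2J females and at 34.9, 32.3 and 29.7 CPM in the males, against 0.0536 to 10.7 CPM (median 0.749) in the other libraries. The groups did not overlap, and the DBA/2J mean was 4.57 times that of the nearest strain, NOD/ShiLtJ. The difference from the mean of the other strains was 5.0 ± 0.15 on the log2 scale (standard error, edgeR adjusted p = 3.26e-27). Its overlapping antisense gene Gm45470, at 14.9 to 22.6 CPM in DBA/2J, moved with it, and because the strand of the counting is not given in the sources used here the 2 genes cannot be told apart.

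Rassf4, a Ras-association family member (chromosome 6, 116633008 to 116673952), was at 130, 111 and 121 CPM in DBA/2J females and 191, 343 and 158 CPM in males. The other libraries lay between 1.46 and 25.0 CPM, so every DBA/2J library was above every other, and the mean was 9.39 times that of NZO/HlLtJ, the next strain. The log2 difference was 4.76 ± 0.12 (edgeR adjusted p = 2.33e-30). Camk2b encodes the beta subunit of a calcium and calmodulin dependent kinase known from neurons. Its DBA/2J values were almost level, at 29.8, 28.8 and 31.6 CPM in females and 30.3, 28.5 and 31.8 CPM in males. The other libraries reached 27.2 CPM, and their strain means ran from 0.118 CPM in WSB/EiJ to 15.6 CPM in C57BL/6J. The log2 difference was 4.49 ± 0.22 (edgeR adjusted p = 3.31e-20), while the DBA/2J mean was 1.93 times that of C57BL/6J.

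Ntrk2, the receptor of brain-derived neurotrophic factor, was at 76.0, 103 and 102 CPM in DBA/2J females and 70.9, 57.2 and 41.3 CPM in males. The other libraries lay between 0.474 and 51.8 CPM, with NZO/HlLtJ highest at a mean of 32.5 CPM, so 1 DBA/2J male lay inside their range. The log2 difference was 4.21 ± 0.16 (edgeR adjusted p = 1.42e-23). Low levels that did not overlap the others were seen for Gucy2e, a photoreceptor guanylate cyclase (0.795 to 2.71 CPM against at most 0.210), Vipr2, a receptor of vasoactive intestinal peptide (0.636 to 2.06 CPM against at most 0.441), the semaphorin Sema3e (1.25 to 2.83 CPM against at most 0.537), the schlafen gene Slfn9 (1.53 to 3.18 CPM against at most 1.43) and the protein-coding 6330403K07Rik (0.948 to 1.95 CPM against at most 0.490).

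**Figure D1:**
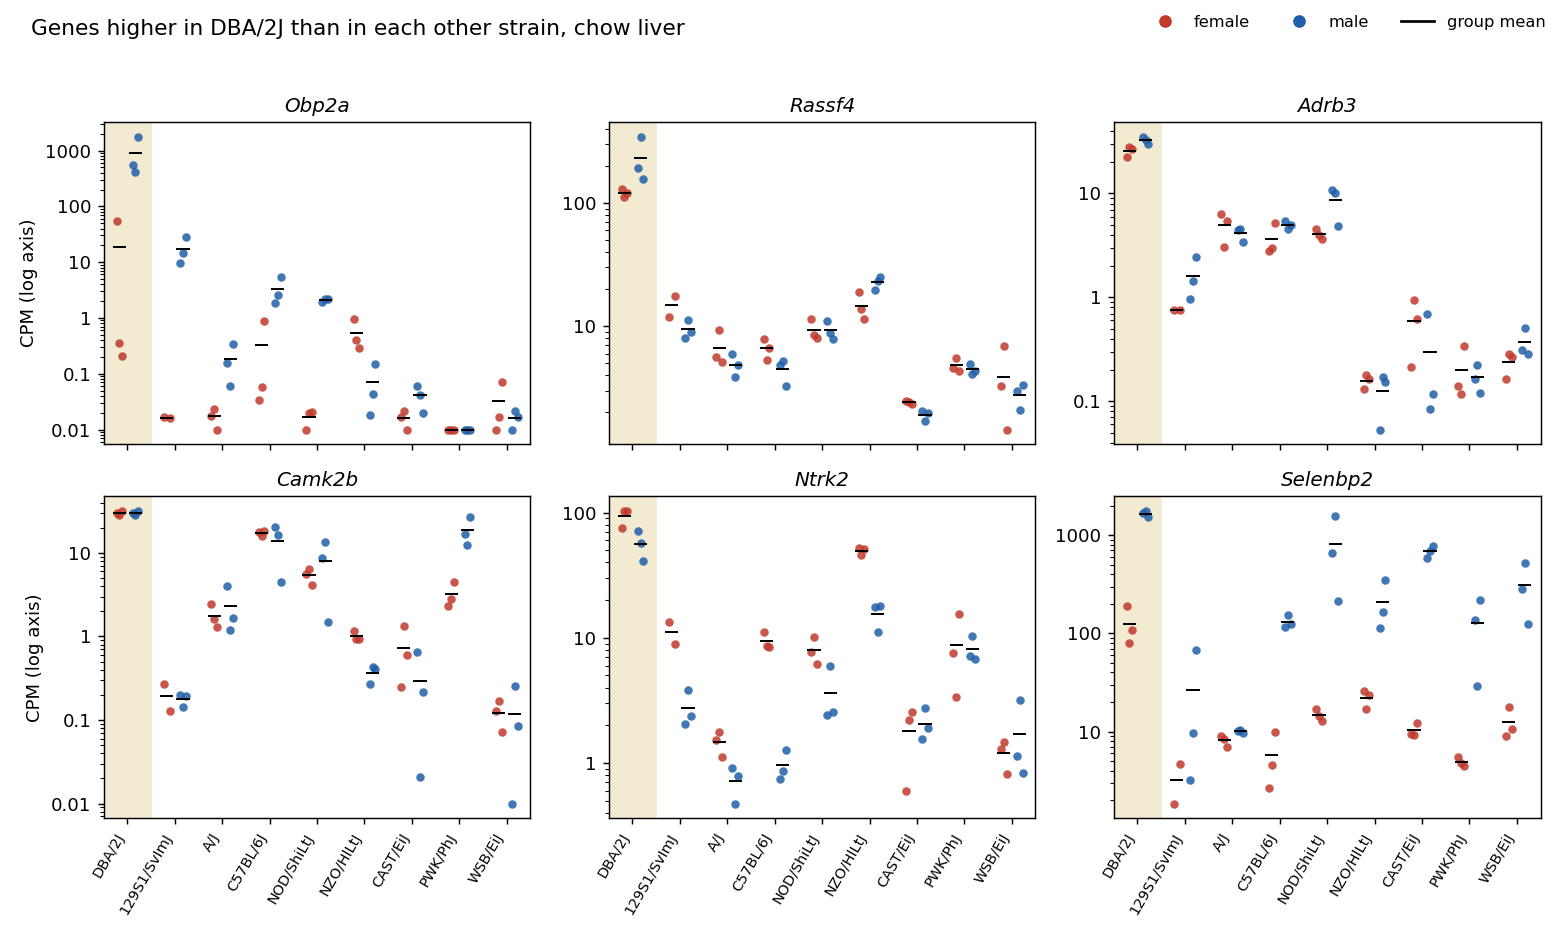
Level in CPM (log axis) of genes set apart upwards, for each of the 9 strains on chow. Each point is 1 library (red female, blue male), the black bar is the mean of 1 sex of a strain and DBA/2J is shaded. Rassf4 (111 to 343 CPM) and Adrb3 (22.4 to 34.9 CPM) sit above every other library, while 2 DBA/2J females lie among the other strains for Obp2a.

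Obp2a, an odorant-binding lipocalin (chromosome 2, 25700043 to 25703326), was set apart upwards (edgeR adjusted p = 7.76e-21), but its libraries varied widely. The males were at 552, 413 and 1747 CPM, and the females at 54.4, 0.355 and 0.206 CPM, against 0 to 28.4 CPM in the other strains. All 3 males and 1 female were above every other library, whereas the other 2 females lay within the range of the other strains. The fitted difference is not given, because 8 groups had at most 3 counts in every library and it depends on the prior count. The DBA/2J mean was 52.8 times that of 129S1/SvImJ, the nearest strain. Selenbp2, a selenium-binding protein that is higher in male liver, was at 1665, 1763 and 1514 CPM in DBA/2J males and at 189, 79.7 and 108 CPM in females. NOD/ShiLtJ came nearest with a mean of 414 CPM against 887 CPM in DBA/2J, and the log2 difference was 3.70 ± 0.26 (edgeR adjusted p = 4.35e-15). Ucp2, a carrier of the inner mitochondrial membrane, ran from 56.2 to 131 CPM in DBA/2J against 10.7 to 69.2 CPM elsewhere, a log2 difference of 1.40 ± 0.14 (edgeR adjusted p = 2.03e-10). Psg18, a pregnancy-specific glycoprotein, was at 1.89, 4.17 and 4.60 CPM in DBA/2J females and at 0.0243 to 0.292 CPM in males, while no other library exceeded 0.149 CPM.

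Among the genes set apart downwards, 2 neighbouring zinc-finger genes were close to 0. Zfp970 (chromosome 2, 177464733 to 177478129) was at 0.136, 0.150 and 0.112 CPM in DBA/2J females and 0.170, 0.0265 and 0.104 CPM in males, against 2.64 to 318 CPM in the other libraries. The DBA/2J mean was 35.0 times below that of A/J, the nearest strain, and the log2 difference was -7.13 ± 0.39 (edgeR adjusted p = 1.23e-18). Its neighbour Gm14403 had at most 0.0389 CPM in DBA/2J, with 0 reads in the 3 males, and 1.19 to 33.3 CPM in the other libraries. Another gene there, Gm14418, had at most 0.0195 CPM against 0.178 to 1.97 CPM. Such genes belong to a large repeated family whose members share sequence, and reads that fit several copies were not counted.

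Cyp2a22, a cytochrome P450 also set apart downwards (chromosome 7, 26931631 to 26939384), was at 0.487, 0.505 and 0.468 CPM in DBA/2J females and 0.510, 0.662 and 0.542 CPM in males, against 0.725 to 406 CPM elsewhere. The lowest strain mean outside DBA/2J was 13.8 CPM in CAST/EiJ, and the log2 difference was -5.98 ± 0.35 (edgeR adjusted p = 1.44e-17). Ildr2, a membrane protein first described from a diabetes-susceptibility locus in crosses with DBA mice (chromosome 1, 166254139 to 166316823), was at 0.876, 0.860 and 0.393 CPM in females and 0.948, 0.848 and 1.33 CPM in males. Other strains had 2.24 to 118 CPM, and the log2 difference was -4.72 ± 0.24 (edgeR adjusted p = 1.03e-19). The carnitine transporter gene Slc22a21 (0.187 to 0.486 CPM) and the replication helicase gene Mcm6 (0.370 to 0.609 CPM) were also lower than in each other strain, by 2.92 and 2.10 on the log2 scale, although their libraries overlapped those of the others.

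Acaca, the cytosolic acetyl-CoA carboxylase that forms malonyl-CoA, the building block of fatty acids (chromosome 11, 84129672 to 84401651), was at 8.53, 13.4 and 10.3 CPM in DBA/2J females and 9.14, 13.6 and 12.1 CPM in males. The lowest of the other libraries had 14.2 CPM and the highest 55.1 CPM, so the groups did not overlap, and the log2 difference was -1.42 ± 0.13 (edgeR adjusted p = 3.22e-12). Mlycd, the decarboxylase that breaks malonyl-CoA down, was at 79.2 to 93.3 CPM against 106 to 335 CPM, a log2 difference of -0.83 ± 0.09. Hacd2, a dehydratase of very long chain fatty acid elongation, was at 29.1 to 35.4 CPM against 43.9 to 122 CPM, a log2 difference of -0.96 ± 0.06. The other carboxylase gene, Acacb, was not set apart and stood higher by 0.40 ± 0.16 (edgeR adjusted p = 0.0471). That call was lost in 26 of 53 fits that each left out 1 library, with an edgeR adjusted p of up to 0.377 without DBA/2J female 1. Abcc2, the canalicular export pump for conjugates, was at 243 to 344 CPM against 283 to 660 CPM and lower than in every strain, with a log2 difference of -0.59 ± 0.11.

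**Figure D2:**
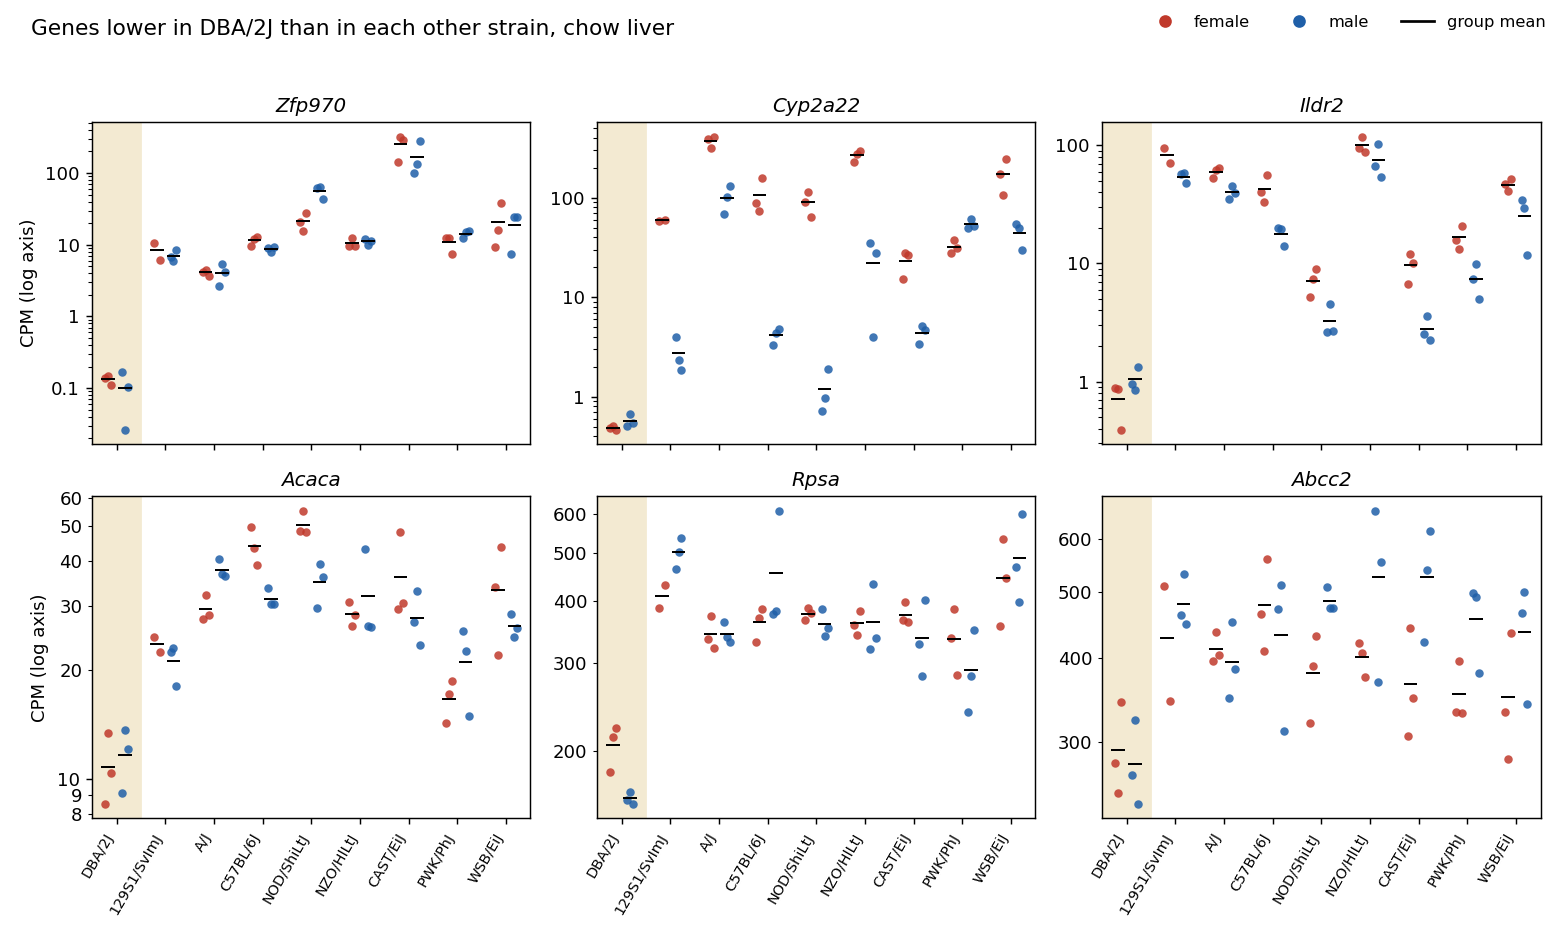
Level in CPM (log axis) of genes set apart downwards, for each of the 9 strains on chow. Each point is 1 library (red female, blue male), the black bar is the mean of 1 sex of a strain, DBA/2J is shaded and values under 0.01 CPM are drawn at 0.01. All 6 DBA/2J libraries lie below all others for Zfp970, Cyp2a22, Ildr2 and Acaca.

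Rpsa, a protein of the small ribosomal subunit, and its processed pseudogene Rpsa-ps10 moved in opposite directions and must be read together. Rpsa was at 181, 214 and 222 CPM in DBA/2J females and 160, 165 and 157 CPM in males, below every other library (239 to 607 CPM). Rpsa-ps10 was at 71.4, 91.4 and 95.5 CPM in females and 67.2, 66.5 and 67.4 CPM in males, above every other library (0.897 to 2.79 CPM). Reads of near-identical copies can be assigned to either. The sum of both was 224 to 318 CPM in DBA/2J, with a mean of 260 CPM below the strain means of 314 to 469 CPM, and overlapped the other libraries (240.2 to 610 CPM).

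Of the 125 set-apart genes, 54 (43.2%) had another set-apart gene within 1 Mb, and 15.6% of all genes tested had one. The 54 formed 23 groups, and in 19 of these all members differed in the same direction. On chromosome 2 near 25700043, Obp2a, Bmyc and A230005M16Rik were all higher. The last 2 overlap on opposite strands, so their reads cannot be told apart. On chromosome 5 between 120730333 and 120907521, the antiviral genes Oas2, Oas1b and Oas1a were higher, and on chromosome 15 so were Apol9a and Apol9b. In all, 43 of the 125 set-apart genes overlap a gene on the opposite strand, and none of the 125 lay on the X or Y chromosome or the mitochondrial genome, where 401, 8 and 16 genes were tested.

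Of 44 interferon-stimulated genes measured, 40 were higher in DBA/2J than the mean of the other strains and 0 lower, beside 14.9% of all genes higher. Their median log2 difference was 1.29, against -0.01 for all genes, and DBA/2J had the highest mean of the 9 strains at 24 of them. Ifi27, at 238, 266 and 192 CPM in females and 203, 245 and 359 CPM in males, overlapped the other libraries (12.6 to 221 CPM) only in part and differed by 2.16 ± 0.12 (edgeR adjusted p = 7.12e-19). Isg15, a ubiquitin-like antiviral protein, was at 14.9, 20.9 and 9.39 CPM in females and 14.3, 25.3 and 38.3 CPM in males, against 0.300 to 21.6 CPM, a log2 difference of 2.36 ± 0.19 (edgeR adjusted p = 3.40e-13). Ifi27, Isg15, Xaf1, Usp18, Oas1a and Oas2 were the 6 members set apart from every strain. The guanylate-binding protein gene Gbp11 had the largest log2 difference of the list, 3.23 ± 0.21, at 27.4 to 55.2 CPM in DBA/2J, but A/J was close at a mean of 41.7 CPM. Tgtp1 passed too, with a fitted difference that depends on the prior count because 4 groups had at most 3 counts in every library, yet its mean was 3.16 CPM in DBA/2J and 13.2 CPM in A/J. Members not called were Gbp9 (-0.11), Ifih1 (0.20), Stat2 (0.29) and Cxcl9 (0.74), given as log2 differences. Apol9a and Apol9b, which were not on the list, were set apart at 73.7 to 170 and 109 to 228 CPM, but they share much sequence.

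Interferon-activated factors bind an element of the form GAAANNGAAA (TTTCNNTTTC on the other strand). It was searched on both strands, counting overlapping matches, in the 250 bases before each RefSeq start site (GRCm38.p6, C57BL/6J reference, not DBA/2J sequence). It was found at 18 of 28 list members with a usable window (64.3%), at 3.37% of 10584 genes tested, at 5 of 48 genes set apart upwards (10.4%) and at 0 of 42 set apart downwards. The list was made of genes known to respond to interferon, so that share describes the list and is no independent finding. The windows of 3 of these 5 genes set apart upwards are shown 5′ to 3′ on the gene's strand, with the matches in capitals. Only windows outside the annotated gene were taken, and Apol9a and Apol9b, which also hold the element, had 0 of these. They are chr4:156200819-156201068 (minus strand) for Isg15, chr5:120907526-120907775 (minus) for Oas1a and chr11:82991831-82992080 (minus) for Slfn9.
Isg15: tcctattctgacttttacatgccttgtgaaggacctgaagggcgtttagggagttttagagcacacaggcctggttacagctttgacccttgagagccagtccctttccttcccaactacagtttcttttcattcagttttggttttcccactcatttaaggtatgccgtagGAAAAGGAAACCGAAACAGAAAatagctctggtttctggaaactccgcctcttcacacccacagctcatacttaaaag
Oas1a: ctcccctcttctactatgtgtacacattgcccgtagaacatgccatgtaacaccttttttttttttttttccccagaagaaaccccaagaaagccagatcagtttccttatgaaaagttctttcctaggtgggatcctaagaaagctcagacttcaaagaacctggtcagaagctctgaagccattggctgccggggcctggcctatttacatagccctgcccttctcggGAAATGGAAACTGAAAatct
Slfn9: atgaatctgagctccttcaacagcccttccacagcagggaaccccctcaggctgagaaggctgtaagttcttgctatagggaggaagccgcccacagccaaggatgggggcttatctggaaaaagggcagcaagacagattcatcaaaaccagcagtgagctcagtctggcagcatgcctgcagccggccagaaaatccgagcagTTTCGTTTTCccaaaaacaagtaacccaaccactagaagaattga
The window of Isg15 holds 3 overlapping matches that begin 78, 72 and 66 bases before the start site. Oas1a holds 2, at 20 and 14 bases, and Slfn9 holds 1, at 45 bases. Of these genes only Isg15 and Oas1a were on the list, and a match shows letters in the window and not that a factor binds there.

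How far DBA/2J stood from the others in these genes depended on the strain it was set against. In tests against 1 strain at a time, 42 of 44 members were higher than in WSB/EiJ (23% of all genes higher) and CAST/EiJ (27.4%) each, 35 than in 129S1/SvImJ (9.21%), 33 than in NOD/ShiLtJ (10.7%), 29 than in C57BL/6J (13.7%) and 28 than in PWK/PhJ (22%). Lower members numbered 4 against PWK/PhJ (22.2% of all genes lower), 1 against C57BL/6J (14.3%) and CAST/EiJ (27.4%) each and 0 against WSB/EiJ (25.7%), 129S1/SvImJ (8.66%) and NOD/ShiLtJ (9.54%). Against A/J the count was 21 higher and 4 lower (11.6% and 10.8% of all genes), and against NZO/HlLtJ 11 higher and 1 lower (14% and 16.1%), with median log2 differences of 0.485 and 0.315. Without the 3 wild-derived strains 33 members were higher and 0 lower (14.5% of all genes higher) and the median was 0.792. The mean log2 CPM of the 44 genes ran from 3.51 to 4.27 in the DBA/2J libraries, from 3.08 to 4.05 in A/J and from 2.97 to 3.80 in NZO/HlLtJ, so these strains overlapped DBA/2J. A single 129S1/SvImJ female, at 3.85, stood far above the rest of its strain, whose lowest library had 1.83.

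**Figure D3:**
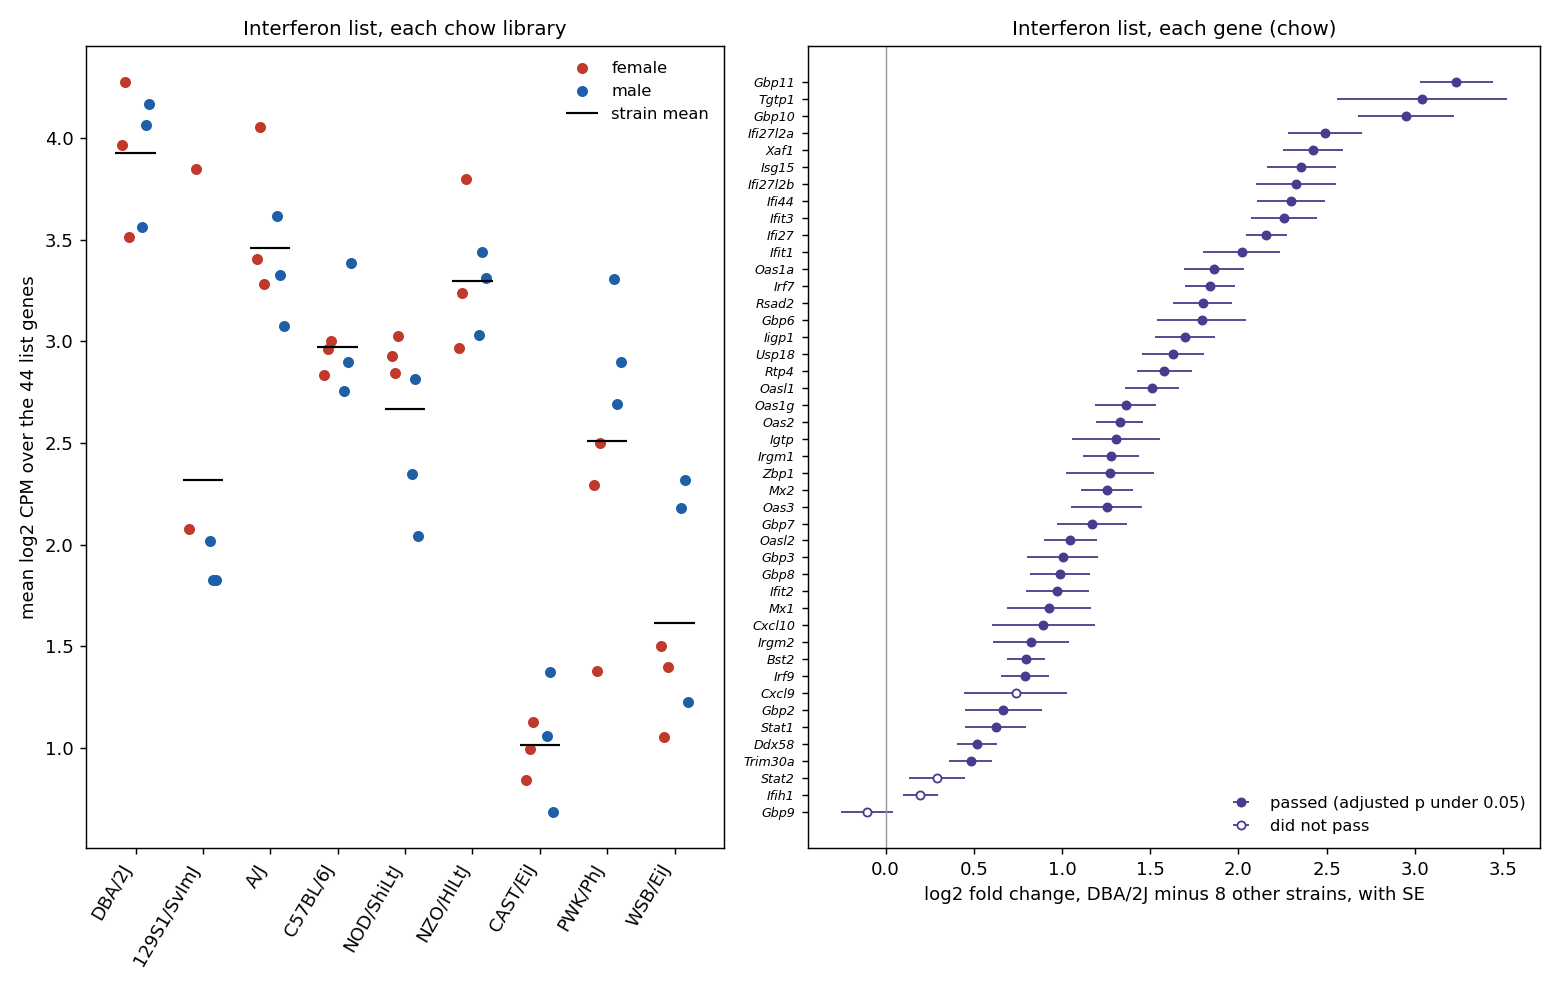
Left, mean log2 CPM of the 44 interferon-stimulated genes in each chow library, by strain. Each point is 1 library (red female, blue male) and the black bar is the mean of a strain. DBA/2J (3.51 to 4.27) overlaps A/J, NZO/HlLtJ and 1 library of 129S1/SvImJ (3.85). It lies above all libraries of C57BL/6J, CAST/EiJ, NOD/ShiLtJ, PWK/PhJ and WSB/EiJ. Right, log2 difference of each gene between DBA/2J and the mean of the other strains with its standard error, filled where it passed.

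Markers of immune cells were measured beside these genes, and their counts stand beside 14.9% of all genes higher and 12.9% lower. Of 8 Kupffer cell and macrophage markers, 3 were higher (Csf1r, Adgre1 and Vsig4) and 0 lower, with log2 differences of 0.60, 0.43 and 0.33, and their summed level was 260 to 424 CPM in DBA/2J against 129 to 901 CPM in the others. Of the 4 T and NK cell markers in the table, Cd4 was higher (summed level 1.74 to 4.84 against 0.370 to 6.75 CPM), and of 8 B and plasma cell markers Cd79b and Mzb1 were higher (13.2 to 25.6 against 2.45 to 45.8 CPM). Of 8 granulocyte markers, 0 were higher and 1 lower, Retnlg, and the neutrophil marker Ly6g had a mean of 0.00325 CPM in DBA/2J. The summed granulocyte level was 0.662 to 1.5 CPM in DBA/2J against 0.609 to 241 CPM, and its mean of 1.1 CPM was below the lowest other strain mean of 1.33 CPM. The part of these cells in the interferon genes was not tested, and in whole liver fewer cells of a type and less RNA per cell cannot be told apart. The sole pancreas marker measured, Cela1, was at 11 to 22.5 CPM in DBA/2J against 0.567 to 17.8 CPM.

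Genes of antigen presentation differed as well, with 17 of 29 higher and 2 lower, beside 14.9% of all genes higher and 12.9% lower, and a median log2 difference of 0.416. H2-T24, a non-classical class I gene, was the 1 member set apart, at 11.2 to 16.2 CPM against 2.23 to 12.5 CPM, a log2 difference of 1.5 ± 0.12 (edgeR adjusted p = 2.50e-13). The transporter gene Tap1 and the immunoproteasome gene Psmb9 were higher by 0.82 and 1.01. The classical class I gene H2-K1 was lower, at 331 to 399 CPM against a C57BL/6J mean of 1532 CPM and a NOD/ShiLtJ mean of 196 CPM, and so was H2-Q10, by 0.43 on the log2 scale. These genes are highly polymorphic and the strains carry different haplotypes, so the size of each difference is uncertain, and a loss of reads at alleles unlike the reference was not tested. Against A/J alone 4 members were higher and 12 lower (11.6% and 10.8% of all genes), and without the wild-derived strains 11 were higher and 4 lower (14.5% and 12.9%).

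Loci known for variants or copy-number differences in DBA/2J or its crosses were listed as a check of identity. Of 12 measured, 5 were higher and 3 lower (14.9% and 12.9% of all genes). Glo1, the glyoxalase gene known to be duplicated in several strains, was at 336, 354 and 308 CPM in DBA/2J females and 514, 604 and 556 CPM in males, against 44.6 to 731 CPM. It was higher than in 6 strains and lower than in A/J (mean 696 CPM), with a log2 difference of 0.81 ± 0.10 (edgeR adjusted p = 1.40e-08). Hdhd3 and Alad, neighbours in a segment known to be duplicated in DBA/2J, were higher by 0.76 ± 0.18 and 0.46 ± 0.14, but A/J and NZO/HlLtJ were above DBA/2J in both means, and 129S1/SvImJ and NOD/ShiLtJ in that of Alad. Without the wild-derived strains the Alad difference was -0.12 (edgeR adjusted p = 0.396). Hc, the complement gene with the frameshift, was at 149 to 243 CPM in DBA/2J and lower than in 6 strains (log2 difference -1.10 ± 0.12, edgeR adjusted p = 1.69e-09), and the means of A/J, 156 CPM, and NOD/ShiLtJ, 169 CPM, were below that of DBA/2J, 196.5 CPM. Gpnmb, a glycoprotein of pigment cells and macrophages, was low in every strain and at 0.318 to 0.876 CPM in DBA/2J (-0.90 ± 0.31, edgeR adjusted p = 0.0263; 0.107 without DBA/2J male 2). The dioxin receptor gene Ahr did not pass, at -0.34 ± 0.14 (edgeR adjusted p = 0.0680), though it did in 1 of 53 fits that each left out 1 library.

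Genes of cholesterol synthesis and uptake were higher in part: 15 of 24 passed upwards and 0 downwards, beside 14.9% and 12.9% of all genes, with a median log2 difference of 0.403. Fdps, farnesyl diphosphate synthase, differed most, at 2.04 to 4.54 CPM in females and 1.86 to 3.60 CPM in males against 0.166 to 3.89 CPM (1.43 ± 0.23, edgeR adjusted p = 3.41e-06). Insig1, which holds back the sterol-sensing factor SREBP, was at 131, 311 and 237 CPM in females and 97.1, 166 and 99.5 CPM in males, a log2 difference of 1.25 ± 0.18 (edgeR adjusted p = 3.02e-07). No member was set apart. Against NZO/HlLtJ 0 were higher and 4 lower (14% and 16.1% of all genes), and against 129S1/SvImJ 0 and 1 (9.21% and 8.66%), with medians of 0.0161 and 0.0181. Against NOD/ShiLtJ 3 were higher and 1 lower (10.7% and 9.54%), and against A/J 4 and 2 (11.6% and 10.8%). Without the wild-derived strains 7 were higher and 0 lower (14.5% and 12.9%) with a median of 0.240.

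Of 24 genes of bile acid synthesis and transport, 6 were higher and 2 lower, beside 14.9% and 12.9% of all genes, and 5 and 6 without the wild-derived strains (14.5% and 12.9%). Cyp7a1, the rate-limiting enzyme of bile acid synthesis, was at 141, 232 and 210 CPM in females and 107, 111 and 27.4 CPM in males, inside the range of 0.0991 to 323 CPM of the others (1.5 ± 0.46, edgeR adjusted p = 0.0116). Without DBA/2J male 2 it no longer passed (edgeR adjusted p = 0.0508). Cyp2c70, which makes muricholic acids, was at 256 to 311 CPM and higher by 1.01 ± 0.19, while the uptake carrier Slco1a4 was lower by 1.13 ± 0.23 on the log2 scale. The Cyp2c70 means of NZO/HlLtJ and PWK/PhJ (310.2 and 661.7 CPM) were above that of DBA/2J (286.4 CPM). Cyp8b1, a sterol hydroxylase, did not pass at 0.09 ± 0.15 (edgeR adjusted p = 0.711).

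Fuel metabolism showed no common direction. The counts of these lists stand beside 14.9% of all genes higher and 12.9% lower, and several are close to it. Of 21 lipogenesis genes 3 were higher and 5 lower. Lpin1, a phosphatidate phosphatase and coregulator, was at 15.3 to 76.0 CPM against a median of 149.5 CPM and lower by 2.60 ± 0.54 on the log2 scale. Neither Fasn (-0.33 ± 0.16, edgeR adjusted p = 0.130) nor Scd1 (0.46 ± 0.31, edgeR adjusted p = 0.286) nor Srebf1 (0.15 ± 0.19, edgeR adjusted p = 0.592) passed. Among 32 genes of fatty acid oxidation, 2 were higher and 4 lower. The higher ones were Fgf21, a fasting hormone, by 1.60 ± 0.35 and Vnn1 by 0.71 ± 0.17, and the lower ones included Acadvl, Slc25a20 and Eci2, which lost its call without DBA/2J female 1 (edgeR adjusted p = 0.0521). Glucose and glycogen genes gave 1 higher and 4 lower of 23, with glycogen synthase Gys2 at -0.55 ± 0.13 and Pck1 level at 0.02 ± 0.14. In one-carbon metabolism (3 higher and 2 lower of 16), Bhmt, betaine-homocysteine methyltransferase, was at 2600 to 4098 CPM and higher by 1.11 ± 0.20, and Mat1a was lower by 0.57 ± 0.11. Of 26 apolipoprotein and lipoprotein genes 5 were higher and 1 lower (Apom, at -0.68 ± 0.13), while Apoa2 and Apoa4 were at 0.07 and 0.09. Without the wild-derived strains the balance of the apolipoprotein list turned, to 1 higher and 6 lower (14.5% and 12.9% of all genes). In that comparison fatty acid oxidation gave 2 and 9, glucose and glycogen 2 and 6, one-carbon metabolism 3 and 5 and lipogenesis 2 and 5. Lower members thus outnumbered higher ones in each of these lists.

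Major urinary proteins, small lipocalins that carry pheromones and are made by male liver above all, were higher at 16 of 20 genes and lower at 0, beside 14.9% and 12.9% of all genes, with a median log2 difference of 1.46. Mup9 was at 58.2, 41.3 and 123 CPM in DBA/2J females and 233, 379 and 234 CPM in males, against 0.0181 to 130 CPM, a log2 difference of 5.41 ± 0.20 (edgeR adjusted p = 3.27e-24). Mup9, Mup2 and Mup1, between 60135932 and 60501960 on chromosome 4, were set apart. Even so, the Mup1 means of C57BL/6J, 60.0 CPM, and 129S1/SvImJ, 29.0 CPM, exceeded the DBA/2J mean of 28.4 CPM because the test averages log values of the sexes. Against C57BL/6J alone 6 Mup genes were higher and 8 lower (13.7% and 14.3% of all genes). The genes are nearly identical in sequence, so the division of reads between them is uncertain, and the sum over all 20 is the safer measure. That sum was 1126 to 1316 CPM in DBA/2J females and 10910 to 12600 CPM in males, against means over the other strains of 895 and 9721 CPM. Over both sexes its mean was 6503 CPM in DBA/2J and 12590 CPM in C57BL/6J, the highest strain.

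Genes known to be higher in male liver gave 10 higher and 1 lower of 19 (median 0.582), and genes known to be higher in female liver 5 higher and 3 lower of 23 (6 and 6 without the wild-derived strains, beside 14.5% and 12.9% of all genes). Over all genes 14.9% were higher and 12.9% lower, so the second list lay nearer to that than the first. In the male list lower members outnumbered higher ones only against PWK/PhJ, at 8 and 5 (22.2% and 22% of all genes). Cytochrome P450 genes were called in both directions, 17 higher and 9 lower of 59. Higher members included Cyp4a32 (431 to 1091 CPM, by 2.16 ± 0.11), Cyp2g1 (1.96 ± 0.28), Cyp2c67, which was set apart (1.65 ± 0.18), and Cyp1a2 (0.75 ± 0.13). Only A/J and CAST/EiJ had higher Cyp4a32 means (1117 and 839.8 against 723.2 CPM), and only NZO/HlLtJ a higher Cyp2g1 mean (12.34 against 4.905 CPM). Lower members included Cyp2c23 (6.31 to 29.1 CPM, by 2.69 ± 0.21) and Cyp2a4. For Cyp2c23 only the A/J and NOD/ShiLtJ means (16.45 and 10.77 CPM) were below that of DBA/2J (17.98 CPM). For Cyp2a4 the means of 129S1/SvImJ, C57BL/6J, NOD/ShiLtJ and WSB/EiJ (137.5 to 297.3 CPM) were below the 398.3 CPM of DBA/2J. Cyp3a11, the main steroid-inducible P450, did not pass (0.17 ± 0.19, edgeR adjusted p = 0.553). P450 genes lie in clusters of close copies, and single members are uncertain for that reason.

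Conjugating enzymes gave 10 higher and 1 lower of 34 glucuronidation and sulfation genes, beside 14.9% and 12.9% of all genes, led by Ugt2b37 (2.34 ± 0.26) and Sult5a1 (1.91 ± 0.19) with Ugdh lower (0.60 ± 0.17 below), but without the wild-derived strains the counts were 8 and 6 (14.5% and 12.9% of all genes). The Sult5a1 mean of PWK/PhJ was above that of DBA/2J (137.6 against 30 CPM). CAST/EiJ was close in Ugt2b37 (41.65 against 43.54 CPM) and A/J in Ugdh (73.77 against 73.9 CPM). Carboxylesterases gave 7 higher and 1 lower of 16, with Ces4a set apart at 0.822 to 6.12 CPM (2.35 ± 0.23), and 4 and 3 without the wild-derived strains. Glutathione S-transferases gave 6 higher, among them Gstm3 (mean 10.9 CPM against 4.19 CPM), and 5 lower of 23. NRF2 targets, the antioxidant genes switched on by oxidative stress, were lower at 7 of 18 and higher at 0, with a median log2 difference of -0.212. Nqo1, a quinone reductase, was at 4.89, 5.38 and 6.38 CPM in females and 3.96, 2.94 and 2.77 CPM in males against a median of 8.02 CPM (-0.85 ± 0.11, edgeR adjusted p = 2.60e-08), and the aldehyde oxidase Aox1 was at -1.06 ± 0.16. Without the wild-derived strains 9 of these genes were lower and 0 higher, beside 12.9% of all genes lower in that comparison.

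Plasma proteins and smaller lists are given beside the 14.9% of all genes higher and 12.9% lower, and some of their counts are near those shares. Complement gave 7 higher, led by C4a (1.82 ± 0.14) and C9 (1.23 ± 0.12), and 1 lower of 26, and 4 and 3 without the wild-derived strains. Acute-phase genes gave 6 higher and 0 lower of 26, among them Apcs (0.94 ± 0.25) and Orm1 (0.90 ± 0.26), whereas Saa1 (-0.48 ± 0.70) did not pass. The list median was -0.0382. Lower members outnumbered higher ones only against NZO/HlLtJ (12 and 2, beside 16.1% and 14% of all genes) and WSB/EiJ (7 and 4, beside 25.7% and 23%). The NZO/HlLtJ means of Apcs (725.1 CPM) and Orm1 (1801 CPM) were above those of DBA/2J (264.3 and 512.4 CPM). So were the A/J mean of Apcs (314.5 CPM) and the C57BL/6J mean of Orm1 (557.4 CPM). In the iron list of 15 genes, 3 were higher and 2 lower, and 1 and 5 without the wild-derived strains. Hamp2, a copy of the hepcidin gene, was at 513, 740 and 1266 CPM in females and 126, 305 and 90.0 CPM in males and exceeded 7 of 8 strains (5.31 ± 0.24), and Hamp itself did not pass (-0.35 ± 0.27, edgeR adjusted p = 0.374). Hamp passed in 1 of 53 fits that each left out 1 library. Over these its difference ran from -0.88 without DBA/2J male 2 to -0.17 without DBA/2J male 3. Of 20 clock genes 1 was higher (Noct, 1.1 ± 0.35) and 3 lower, with Ciart at -2.38 ± 0.55 and Usp2 at -1.08 ± 0.39. Noct lost its call without DBA/2J male 2 (edgeR adjusted p = 0.0518) and Usp2 in 5 of 53 such fits (up to 0.0945 without DBA/2J female 2). Asns, asparagine synthetase, was lower by 1.62 ± 0.36 on the log2 scale in a stress list that gave 2 higher and 1 lower of 17. The 2 higher members, the heat shock genes Hspa1a and Hspa1b, both lost their calls without DBA/2J female 2 (edgeR adjusted p = 0.234 and 0.0785). Heme genes gave 2 higher of 12, the urea cycle and amino acid genes 6 higher and 4 lower of 33, lipid droplet genes 4 and 4 of 20, matrix genes 3 and 2 of 22, pericentral genes 3 and 1 of 12 and periportal genes 1 and 1 of 11. The heme genes turned to 0 higher and 3 lower without the wild-derived strains (14.5% of all genes higher and 12.9% lower). The counts there were 4 and 7 for lipid droplets, 1 and 2 for matrix, 4 and 4 for pericentral, 2 and 0 for periportal, 3 and 5 for clock and 5 and 1 for stress genes. The AHR and xenobiotic regulator list gave 1 higher and 3 lower of 11 (1 and 5 without the wild-derived strains), among them the pregnane receptor Nr1i2 at -0.46 ± 0.13.

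Taken by sex, DBA/2J females differed from the females of the other strains at 2617 genes (18.3% of genes tested) and males at 2600 (18.1%), and 1383 were called in both in the same direction. The DBA/2J difference itself differed between the sexes at 206 genes (1.44% of genes tested; 1694 at an unadjusted p under 0.05), 127 with a higher value in males and 79 with a lower one. Of the 125 set-apart genes, 118 were called in both sexes and 18 were among the 206. Among genes with a mean of at least 1 CPM, the largest positive difference was that of the pseudogene Gm16505, at 0.0374 to 0.0936 CPM in DBA/2J females and 6.00 to 8.70 CPM in males, against at most 0.491 CPM elsewhere. Moxd1, a monooxygenase known as male-biased in liver, was at 0.262 to 0.370 CPM in DBA/2J females and 20.7, 194 and 171 CPM in males. Gm42517 was at 0 to 0.0779 CPM in females and 2.26 to 2.94 CPM in males, while no other library exceeded 0.118 CPM.

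Of the 3 largest negative differences, 2 were those of P450 genes known to be higher in female liver. Cyp2c40 was at 390, 337 and 261 CPM in DBA/2J females and 0.170, 0.212 and 0.250 CPM in males, with a log2 difference from the other strains of 2.03 in females and -3.59 in males. Cyp2b9 was at 292, 548 and 391 CPM in females and 0.316, 0.212 and 0.479 CPM in males, with differences of 1.94 and -2.98. Rsph4a, a radial spoke protein of cilia, was at 13.9, 4.02 and 8.94 CPM in females and at most 0.0625 CPM in males. For these 3 genes the DBA/2J females were above and the DBA/2J males below the same-sex mean of the other strains, and the fitted value of Rsph4a depends on the prior count. The count of 206 genes rested on single DBA/2J libraries: it was 125, 135 and 73 without males 1, 2 and 3, and 92 and 84 without females 2 and 3. The count in females alone was 1498 without female 2.

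**Figure D4:**
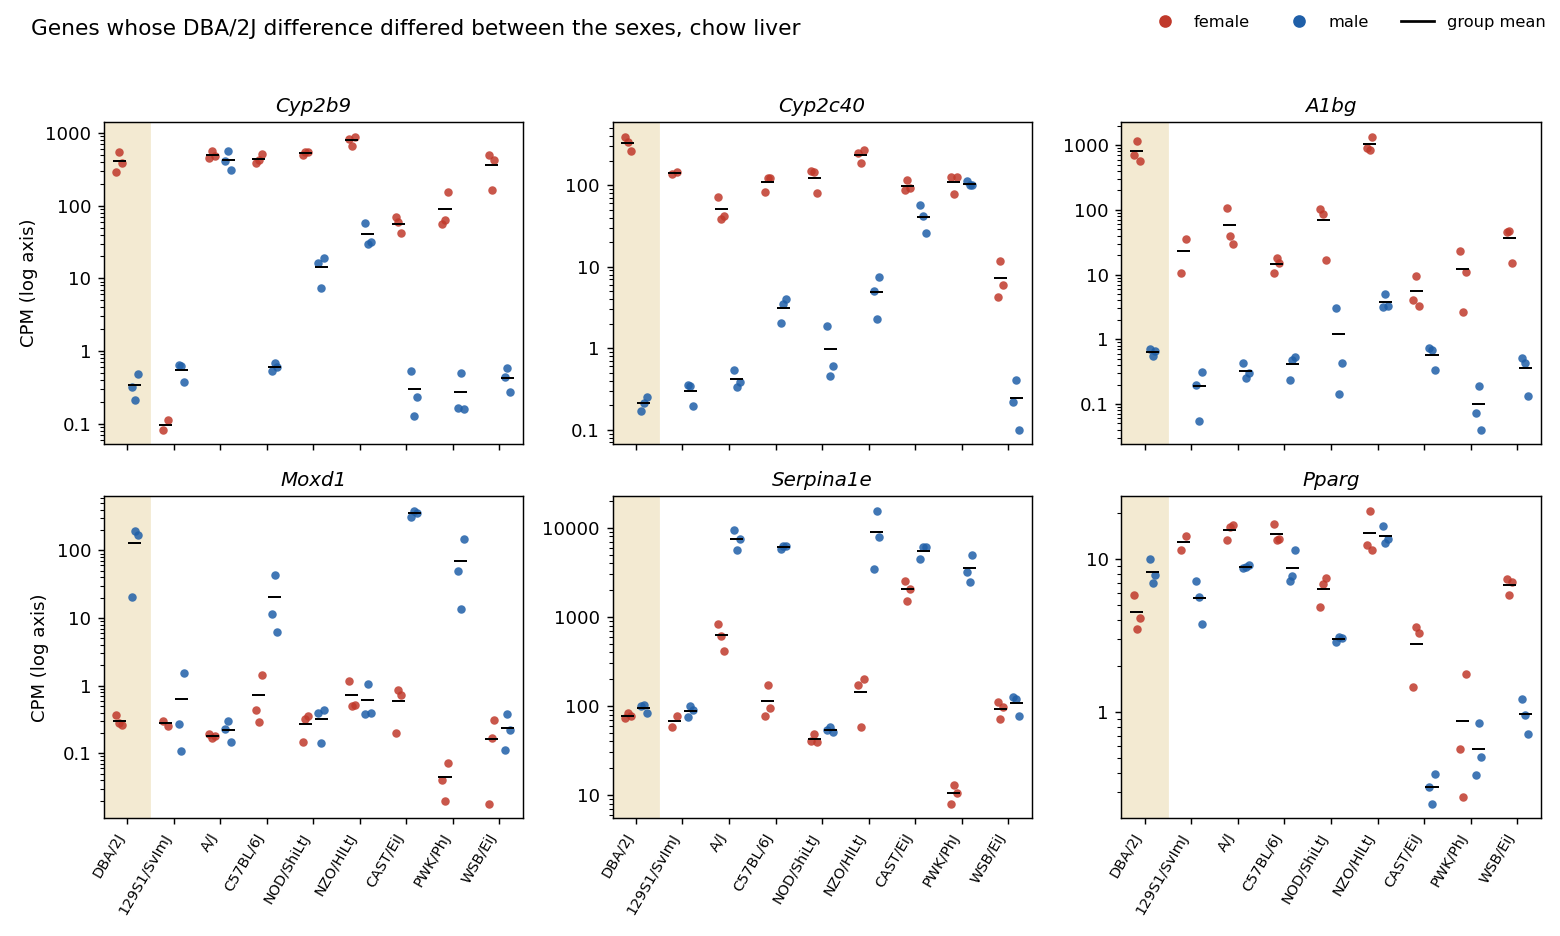
Level in CPM (log axis) by strain of genes whose DBA/2J difference on chow differed between the sexes. Each point is 1 library (red female, blue male), the black bar is a group mean, DBA/2J is shaded and values under 0.01 CPM are drawn at 0.01; the DBA/2J females and males lie furthest apart for Cyp2c40 (261 to 390 against 0.170 to 0.250 CPM).

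The same contrast in mice on a high-fat diet (60% of energy from fat, begun at 8 weeks of age) used other animals, 6 of DBA/2J among 52 libraries, and was fitted on its own. The NZO/HlLtJ male group there was 1 library, which the fit assumes to vary like the other groups. There 5971 genes were called (41.7% of genes tested), 3288 higher (22.9%) and 2683 lower (18.7%). Of the 125 genes set apart on chow, all 125 had the same sign on the high-fat diet and 123 were called. DBA/2J was set apart from every strain on the high-fat diet at 238 genes (1.66% of genes tested), of which 92 were those of chow, 73.6% of the chow genes and 38.7% of the high-fat genes. Rassf4 was at a mean of 180 CPM in DBA/2J and 10.6 CPM in the others there, Adrb3 at 37.7 and 3.00 CPM, Zfp970 at 0.155 and 37.6 CPM, Cyp2a22 at 0.484 and 110 CPM and Acaca at 11 and 28.8 CPM. Of the interferon-stimulated genes 42 of 44 were higher and 0 lower (median 1.83), and of the cholesterol genes 24 of 24 were higher (median 1.39), while 18 of 32 fatty acid oxidation genes were lower and 2 higher (median -0.297). Of the immune-cell markers there, 8 of 8 of Kupffer cells and macrophages (median 0.743) and 4 of 4 of T and NK cells (median 1.22) were higher, 2 of 8 of B and plasma cells were higher and 0 lower, and 1 of 8 of granulocytes was higher and 1 lower. Their part in these results was not tested. Whether the diets differed in these lists was not tested. Ildr2 was at 3.56 CPM in DBA/2J on the high-fat diet and 48.1 CPM in the others, and Cyp2b10, called higher on chow (1.06 ± 0.37; edgeR adjusted p = 0.761 without DBA/2J male 3), was not called there (0.18, edgeR adjusted p = 0.818).

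**Figure D5:**
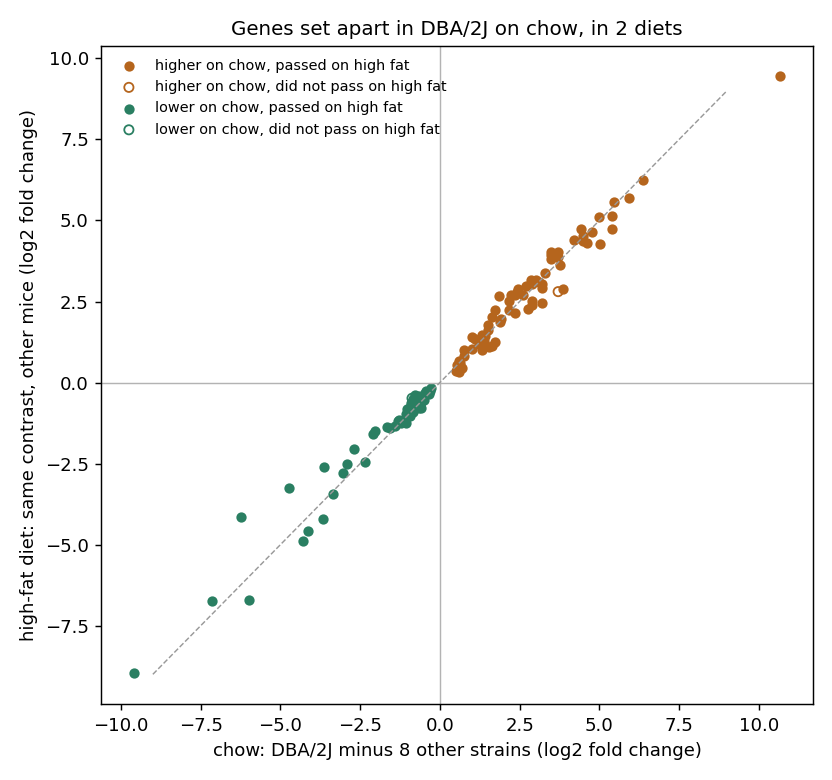
Log2 difference between DBA/2J and the mean of the other strains on chow (x axis) and on the high-fat diet (y axis, other mice) for the genes set apart on chow. Each point is 1 of the 125 genes and the diagonal marks equal differences; all 125 have the same sign on both diets.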

How the data were processed

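The deposited table held whole-number read counts per gene for every library, which the authors made with STAR 2.73a per the submitters' processing notes, which also name FastQC and edgeR 3.24.3. The genome build, annotation, counting tool and strand setting are not given in the sources used here. Gene names and positions came from GENCODE M21 (GRCm38), which named 14321 of 14330 genes. The 3 rows that name no gene (unassigned, ambiguous and multiply mapped reads) were left out of library sizes, and no filter on low counts was added.

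DBA/2J was compared with the other strains on chow in 1 fit of 53 libraries with 18 group means (strain by sex, 35 residual degrees of freedom, common dispersion 0.044) by edgeR 4.0.16 (TMM scaling, trended quasi-likelihood F test, R 4.3.3), with Benjamini-Hochberg adjustment over all genes at 0.05. The same fit gave the contrasts against each strain, within each sex and between sexes. High-fat libraries had their own fit (52 libraries, 34 residual degrees of freedom). CPM values are TMM-scaled, log2 CPM values use a prior count of 1, and fitted log2 differences use the default prior count of edgeR's fit. Standard errors were taken from the difference and its F statistic. Where a group had at most 3 counts in every library, the fitted difference depends on that default prior count and is no bound. The 1 library labelled 129S1/SvImJ female that the comparison leaves out was kept in as an alternative. Alternatives by limma 3.58.1, DESeq2 1.42.0, other scaling, filters and left-out libraries or strains stand in the closing section. The procedure was tested on simulated data.

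The comparison, the gene lists and the rule for named genes were chosen with earlier results of these data known. The rule took a panel of 30 genes, the 12 protein-coding set-apart genes with the largest difference in each direction and at least 1 CPM, the 5 with the largest difference in level, 3 genes in each direction for the sex difference, and up to 2 genes per direction in each of 30 lists. Other genes were named after their values were seen, among them Gm45470, Bmyc, Ucp2, Vipr2, Hacd2, Mlycd, Apol9a, Apol9b, Tap1, Psmb9, Acadvl, Slc25a20 and the uncalled members of the interferon list. Per the labels, each library is a separate mouse, and replicate numbers follow accession order and pair nothing. Some members of the gene lists were counted with their lists and are not reported here by name.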

Additional observations from a re-analysis of the deposited data

Results flagged for a closer look

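The difference between DBA/2J and the other strains on chow was itself different between males and females at 21 of the genes singled out by the rule for named genes or by list, all by edgeR's interaction contrast with Benjamini-Hochberg adjustment. Values are the male difference minus the female difference on the log2 scale, and all rest on 3 DBA/2J libraries per sex.

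Among cytochrome P450 genes the value was -5.62 for Cyp2c40, -4.91 for Cyp2b9 and -3.50 for Cyp2a4, and it was 3.28 for Cyp2a22 and 1.40 for Cyp2c23. The last 2 were lower in DBA/2J in both sexes, by a log2 difference of -7.62 in females and -4.34 in males for Cyp2a22. Among transporters and conjugating enzymes it was -3.35 for Slc22a26, an organic anion carrier, -1.80 for Slco1a4 and -3.02 for Ugt2b37.

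Secreted proteins included A1bg at -4.00, the protease inhibitor Serpina1e at -2.96, Mup9 at -2.20, Mup10 at -2.07 and the complement gene C4a at 1.73. Mup9 was higher in DBA/2J by 6.51 in females and 4.31 in males. Genes of lipid uptake were Cd36, a fatty acid receptor, at 1.30 and Pparg, a nuclear receptor of fat storage, at 2.19. Pparg differed by -0.60 in females and 1.59 in males.

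The pseudogene Gm16505 had 6.26, Gm42517 6.00, Moxd1 5.38 and the cilia gene Rsph4a -4.57. Groups of Gm16505, Gm42517, Rsph4a and Mup10 had at most 3 counts in every library, so these values depend on the prior count. Rassf4 had 1.18 and Ildr2 1.55, and both were set apart from every strain with the same direction in each sex.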

How the results depend on the processing

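No paired analysis was possible because the labels give no replicate numbers that link mice across groups. With an absolute log2 difference of at least 1 in addition, the count fell from 3982 to 978 for DBA/2J against the other strains, from 2617 to 1036 in females, from 2600 to 1012 in males and from 125 to 46 for set-apart genes. Without the wild-derived strains 432 genes were set apart, all 125 among them, and 464 had a sex-dependent difference, while 3925 genes differed from the mean, 2617 of them shared with the 3982. With the strain as the unit, limma called 1 gene. Without 1 chow library at a time (53 fits) the counts ran from 3237 to 4259, from 1498 to 2856 in females, from 1765 to 2860 in males, from 73 to 277 for the sex difference and from 106 to 135 for set-apart genes. On the high-fat diet they ran from 5018 to 5984 without 1 DBA/2J library. Without the wild-derived strains 5 named genes turned: Alad to -0.12, Pparg to -0.62, Mgst2 to 0.36, Ftl1 to -0.061 and Lum to -0.25. The causes were not tested. Other scaling, DESeq2, limma, the filter at 1 CPM, both diets in 1 fit, the left-out library kept in and each other strain left out kept all counts they were run for within 1.5 times, and the list medians within the spread of DBA/2J libraries under other scaling and limma. Of 136 named genes, 130 to 136 kept their side of the threshold with other scaling, DESeq2, limma, both diets in 1 fit or the left-out library kept in, 116 to 132 with 1 strain left out and 109 without the wild-derived strains. With the strain as the unit no named gene was called. There 120 lost their call, and the 16 that kept their side had not passed in the main fit either. Depth limits what can be said of genes near 0 CPM, such as Gm14403 and Psg18.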
